A study of Mus musculus with 9 samples.

Results

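The data cover 10 genes of the IRE1-XBP1 and ATF6 branches of the unfolded protein response, followed in the hypothalamus of mouse pups. They are Ern1, Xbp1, Atf6, Hspa5, Hsp90b1, Dnajb9, Sdf2l1, Creld2, Pdia4 and Herpud1. They were taken by name from the deposited table of gene counts. All 10 were found among its 54532 genes, and all 10 passed the filter on low counts that left 17546 genes for testing. In these branches, misfolded protein in the endoplasmic reticulum (ER) activates the sensors IRE1 (from Ern1) and ATF6. IRE1 splices the Xbp1 mRNA so that it encodes an active transcription factor, while ATF6 moves to the Golgi and is cut there to free its own. Both factors raise genes for ER chaperones, folding enzymes and the machinery that disposes of misfolded protein, and in the hypothalamus ER stress is known for its links to leptin and insulin resistance.

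The hypothalamus, which controls feeding and energy use, was taken at postnatal day 21 from wild-type males of the outbred ICR strain, with 3 RNA-seq libraries in each of 3 groups. LP pups had dams on a low-fat diet (10% of kcal as fat) and received PBS. HP pups had dams fed the high-fat high-sucrose diet (45% of kcal as fat) and received PBS as well. HA pups had dams on that same high-fat high-sucrose diet and received 4-PBA, commonly 4-phenylbutyric acid, a chemical chaperone that is also a histone deacetylase inhibitor. All pups were injected daily from postnatal day 4 to 16 and were raised in litters of 10, and all dams ate their diet for 5 weeks before mating and kept it through gestation and lactation. HP against LP asks about the diet of the dam, and HA against HP asks about the compound. Pups of low-fat dams given 4-PBA were not analysed here.

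No label tells if pups within a group had different mothers, so a p-value measures only the spread between these libraries. In bulk tissue, fewer cells of a type and less RNA per cell cannot be told apart. Library titles carry a code of unstated meaning, Lg42 or Lg63 in LP and Hg43 (replicates 1 and 2) or Hg13 (replicate 3) in both HP and HA. LP shares no code with the other groups, so the codes and the diet cannot be told apart there. Total counts lay between 18226924 and 21823961 per library.

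The sequence that IRE1 acts on is shown because it marks a limit of the measurement. IRE1 removes 26 bases from the Xbp1 mRNA, and a count per gene adds up both forms. The segment lies in an exon of the annotated Xbp1 transcript, on the plus strand of GRCm38 at chr11:5524279-5524304. It is printed in capitals, with its flanks in lower case.

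Xbp1: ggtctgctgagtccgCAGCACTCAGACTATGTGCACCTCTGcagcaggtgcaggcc

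All Xbp1 values that follow are therefore totals of unspliced and spliced mRNA.

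The promoters of 4 genes are shown because they hold the exact letters of an ER stress response element. RefSeq promoter sequences of GRCm38.p6 were matched for 9 of the 10 genes. The element ERSE was searched as CCAAT, then 9 bases of any kind, then CCACG, and ERSE-II as ATTGG, then 1 base of any kind, then CCACG, on both strands, in windows from 250 bases before to 50 bases after each start. The textbook binders of ERSE are NF-Y at its CCAAT end and ATF6 or XBP1 at its CCACG end. Capitals mark the matches in the 250 bases before the start, printed along each gene's own strand.

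Hspa5, chr2:34771840-34772089, plus strand: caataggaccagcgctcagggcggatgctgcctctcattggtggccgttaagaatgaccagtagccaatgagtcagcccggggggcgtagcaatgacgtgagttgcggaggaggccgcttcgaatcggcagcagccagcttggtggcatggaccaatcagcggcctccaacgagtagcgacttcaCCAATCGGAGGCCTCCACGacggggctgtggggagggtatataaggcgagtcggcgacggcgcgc

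Hsp90b1, chr10:86705445-86705694, minus strand: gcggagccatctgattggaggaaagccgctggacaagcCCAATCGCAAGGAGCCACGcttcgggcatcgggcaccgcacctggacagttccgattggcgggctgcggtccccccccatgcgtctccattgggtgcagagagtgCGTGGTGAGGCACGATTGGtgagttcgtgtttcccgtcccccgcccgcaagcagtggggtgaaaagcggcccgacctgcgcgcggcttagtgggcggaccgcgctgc

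Creld2, chr15:88819396-88819645, plus strand: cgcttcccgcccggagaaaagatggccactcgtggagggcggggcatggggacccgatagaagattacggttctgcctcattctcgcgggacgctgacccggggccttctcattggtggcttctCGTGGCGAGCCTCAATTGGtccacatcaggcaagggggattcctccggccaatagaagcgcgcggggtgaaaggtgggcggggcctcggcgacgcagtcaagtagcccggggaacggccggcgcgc

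Herpud1, chr8:94386179-94386428, plus strand: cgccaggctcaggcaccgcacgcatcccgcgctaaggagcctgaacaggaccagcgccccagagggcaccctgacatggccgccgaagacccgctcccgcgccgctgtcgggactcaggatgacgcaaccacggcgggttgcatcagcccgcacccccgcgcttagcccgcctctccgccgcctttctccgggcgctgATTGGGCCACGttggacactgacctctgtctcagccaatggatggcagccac

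Positions count from the RefSeq start, with negative numbers before it. For Hspa5 and Hsp90b1 that start lies inside the gene span given below, and the Hspa5 match lies inside that span as well. The ERSE match of Hspa5 ran from -65 to -47. Hsp90b1 held 2 matches, from -212 to -194 and from -107 to -89, and the nearer one lay on the opposite strand. The Creld2 match ran from -126 to -108, also on the opposite strand, and the ERSE-II match of Herpud1 from -52 to -42. Among 32851 promoters of the same length, 39 (0.119%) held ERSE and 12 (0.0365%) held ERSE-II. The XBP1 site core TGACGTGG, held by 0.676% of promoters, was in none of the 9 windows. The short parts are common: CCACG was in 8 of the 9 windows and in 32.8% of all promoters, and CCAAT, which is part of ERSE, was in 7 of the 9 and in 37.4%. A match describes letters only, and the windows of Xbp1, Pdia4, Sdf2l1, Dnajb9 and Ern1 held none of the 3 long motifs.

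Levels between genes were compared per length, on the FPKM scale, from reads over the exons of each protein-coding gene. Gene spans are on GRCm38. Hspa5 (chr2:34771970-34777547), which encodes the ER chaperone BiP, was at 158 ± 15.3 FPKM (mean ± SD over all 9 libraries). Hsp90b1 (chr10:86690209-86705509), the ER member of the HSP90 family, was at 97.9 ± 8.08 FPKM. The lowest Hspa5 library (142 FPKM) was above the highest Hsp90b1 library (109 FPKM), and the lowest Hsp90b1 library (85.9 FPKM) was above the highest Xbp1 library (45.0 FPKM).

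Xbp1 (chr11:5520659-5525893) was at 38.0 ± 5.09 FPKM. Herpud1 (chr8:94386438-94395377), a membrane protein of ER-associated degradation, was at 29.7 ± 3.33 FPKM. The ranges of Xbp1 and Herpud1 overlapped across libraries. Dnajb9 (chr12:44205559-44210326), a J-domain co-chaperone of BiP, was at 26.8 ± 1.35 FPKM. Pdia4 (chr6:47796141-47813430), a protein disulfide isomerase, was at 26.3 ± 3.58 FPKM. Sdf2l1 (chr16:17130138-17132383), an ER protein that works with J-domain co-chaperones of BiP, was at 24.5 ± 3.94 FPKM. These neighbours differed by less than their spread. Creld2 (chr15:88819646-88826683), a secretory pathway protein with disulfide isomerase activity, was at 19.6 ± 3.09 FPKM. The sensors were lowest, with Atf6 (chr1:170704674-170867771) at 5.11 ± 0.197 FPKM and Ern1 (chr11:106394650-106487852) at 2.61 ± 0.295 FPKM, and their ranges did not meet.

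The plot of CPM by group shows all 10 genes in all 9 libraries. CPM is the count scaled by the TMM-adjusted library size and serves to compare one gene between libraries.

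**Figure D1:**
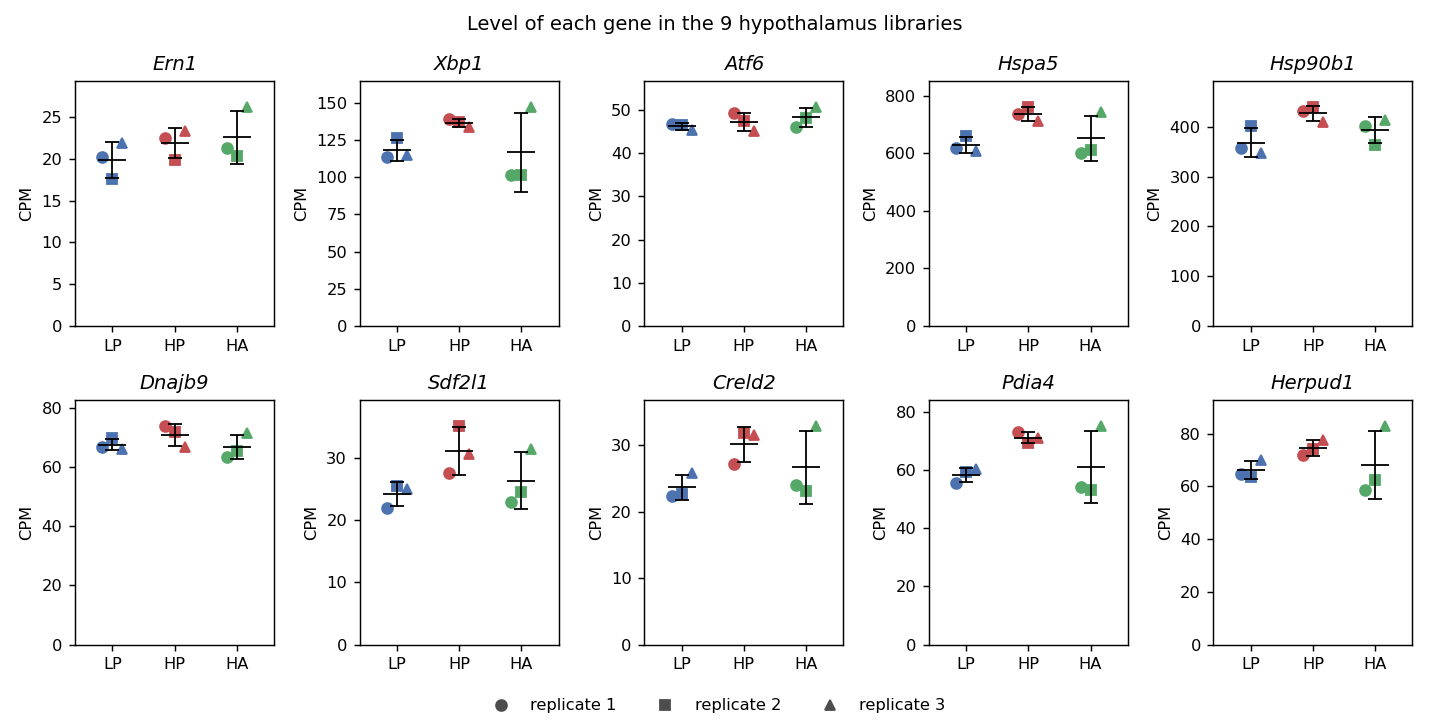
Level of each of the 10 genes in CPM (y axis, from 0) in the 3 libraries of LP, HP and HA (x axis); the horizontal mark is the group mean and the bar 1 SD. Hspa5 lies between 607 and 661 CPM in LP and between 712 and 760 CPM in HP, and HA replicate 3 lies apart from the other HA libraries for most genes.

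In HP against LP, 7 of the 10 genes had all HP libraries above all LP libraries, but the differences were small and none passed the test. The 7 were Xbp1, Hspa5, Hsp90b1, Sdf2l1, Creld2, Pdia4 and Herpud1, and their estimates ran from 12.7% higher for Herpud1 to 28.9% higher for Sdf2l1. Among all genes tested, 5.93% had HP libraries wholly above LP libraries. With edgeR's quasi-likelihood test and Benjamini-Hochberg adjustment over all genes, 0 of the 10 were called, beside 0.0114% of all genes (2 genes). DESeq2 and limma-voom also called 0 of the 10. At an unadjusted p under 0.05, 5 of the 10 were higher in HP, beside 3.12% of all genes. All 10 estimates were above 0, as were 49.1% of all genes, and the median log2 fold change was 0.21 for the 10 and -0.002 for all genes.

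Among the sensors and their factor, HP and LP did not overlap for Xbp1 and did for Ern1 and Atf6; no test compared the genes. Xbp1 was at 113, 126 and 115 CPM in LP and at 139, 137 and 133 CPM in HP (values here and after are in the order of the replicates 1, 2 and 3). Every HP library was above every LP library, and the log2 fold change was 0.21 (SE 0.123, adjusted p = 0.868, edgeR). Ern1 was at 20.3, 17.5 and 21.8 CPM in LP and at 22.4, 19.9 and 23.3 CPM in HP, with a log2 fold change of 0.14 (SE 0.118). Atf6 was at 46.9, 46.6 and 45.3 CPM in LP and at 49.4, 47.4 and 45.1 CPM in HP, with a log2 fold change of 0.03 (SE 0.055). The groups overlapped for both sensors. The 95% interval of the log2 fold change ran from -0.06 to 0.48 for Xbp1, from -0.12 to 0.40 for Ern1 and from -0.09 to 0.15 for Atf6, so all 3 included 0 and those of Xbp1 and Ern1 largely coincided.

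The 2 abundant chaperones had the smallest p of the 10. Hspa5 was at 618, 661 and 607 CPM in LP and at 736, 760 and 712 CPM in HP. Its lowest HP library was thus above its highest LP library, with a log2 fold change of 0.23 (SE 0.075, 95% interval 0.06 to 0.40, adjusted p = 0.769, edgeR). Hsp90b1 was at 357, 401 and 347 CPM in LP and at 431, 439 and 409 CPM in HP. LP replicate 2 came closest to HP without reaching it, and the log2 fold change was 0.21 (SE 0.065, 95% interval 0.07 to 0.36, adjusted p = 0.710, edgeR). Hsp90b1 shares 415 of its 4032 exon bases with 1810014B01Rik on the other strand, and reads from those bases cannot be told apart without strand; 1810014B01Rik averaged 80.8 counts per library and Hsp90b1 7731.

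The folding factors of lower level had larger estimates and wider intervals. Sdf2l1 was at 21.9, 25.5 and 25.0 CPM in LP and at 27.5, 35.1 and 30.6 CPM in HP, with a log2 fold change of 0.37 (SE 0.129, 95% interval 0.08 to 0.65). Creld2 was at 22.4, 22.7 and 25.9 CPM in LP and at 27.1, 31.8 and 31.5 CPM in HP, with a log2 fold change of 0.35 (SE 0.133, 95% interval 0.06 to 0.65). Pdia4 was at 55.4, 59.1 and 60.2 CPM in LP and at 73.0, 69.1 and 71.0 CPM in HP, with a log2 fold change of 0.29 (SE 0.113, 95% interval 0.04 to 0.54). HP and LP were farthest apart in Pdia4 (lowest HP library 69.1, highest LP library 60.2) and closest in Creld2 (27.1 and 25.9). Their adjusted p-values were 0.792 for Sdf2l1 and 0.796 for both Creld2 and Pdia4 (edgeR).

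Herpud1 was at 64.6, 63.7 and 69.9 CPM in LP and at 71.7, 74.0 and 77.6 CPM in HP, with a log2 difference of 0.17 (SE 0.110, adjusted p = 0.879, edgeR). The groups did not overlap, but LP replicate 3 was close to HP replicate 1. Dnajb9 was at 67.0, 69.9 and 66.2 CPM in LP and at 74.1, 71.9 and 66.8 CPM in HP. HP replicate 3 of Dnajb9 lay among the LP libraries, and the log2 fold change was 0.07 (SE 0.059, adjusted p = 0.903, edgeR). Dnajb9 has a processed pseudogene, Gm6568, with 93.3% identity over 28.3% of the transcript, which averaged 1.78 counts. All 4 genes with an exact ERSE or ERSE-II match were among the 7 whose groups did not overlap, and so were Xbp1, Pdia4 and Sdf2l1, whose windows held no match.

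**Figure D2:**
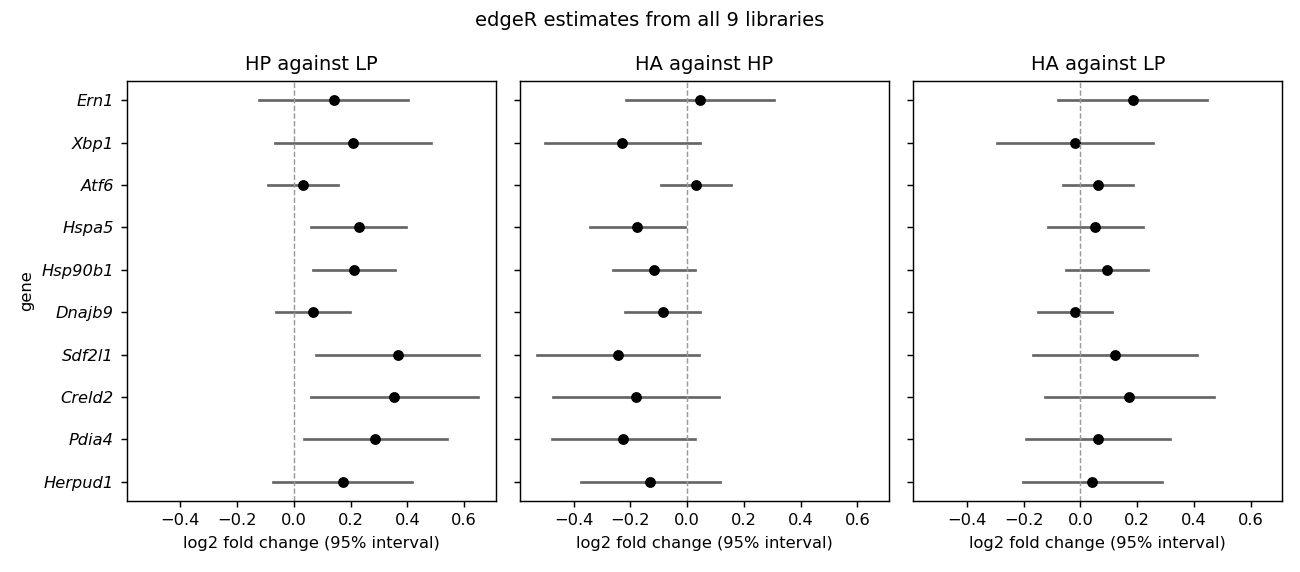
Log2 fold change of each gene (points) with its 95% interval (lines) for the 3 comparisons, from the edgeR fit of all 9 libraries; 0 is dashed. All 10 estimates of HP against LP lie above 0, 8 of 10 estimates of HA against HP lie below it, and no gene passed the adjusted threshold.

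In HA against HP, the HA libraries split. For 8 of the 10 genes, HA replicates 1 and 2 were both below every HP library while HA replicate 3 was not, a pattern held by 6.27% of all genes tested. The exceptions were Atf6 and Ern1. The pattern was drawn from these same libraries, and the 10 genes were chosen with earlier results of these data known. The share of all genes is therefore given as a description only. HA replicate 3 was the highest HA library for all 10 genes (36.9% of all genes) and was above every LP library for all 10 (30.3% of all genes). No gene had HA wholly below HP, beside 5.89% of all genes. The test called 0 of the 10 (edgeR, beside 0.0114% of all genes), as did DESeq2 and limma-voom. At an unadjusted p under 0.05, 1 of the 10 (Hspa5) was lower, beside 2.41% of all genes. The estimates were lower in HA for 8 genes and higher for Atf6 and Ern1, where 50.8% of all genes were estimated higher, and their median log2 fold change was -0.15, beside 0.002 for all genes. HA against HP uses the same HP libraries as HP against LP, so the 2 sets of estimates are not independent.

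Xbp1 was the gene with the widest split. It was at 101 CPM in HA replicate 1, 102 CPM in replicate 2 and 147 CPM in replicate 3. The first pair lay below all 3 LP libraries, and the third was the highest of all 9. The log2 fold change of HA against HP was -0.23 (SE 0.123, adjusted p = 0.847, edgeR). Without HA replicate 3, Xbp1 was called, with a log2 difference of -0.42 (SE 0.055, adjusted p = 0.0355, edgeR), which was the one gene of the 10 to pass in that fit. Over 20 alternative fits, the adjusted p for Xbp1 ran from 0.0226 to 0.9999 and every estimate was below 0.

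Pdia4 showed the same arrangement, at 54.2 and 53.2 CPM in HA replicates 1 and 2 and at 75.1 CPM in replicate 3. Its log2 fold change was -0.22 (SE 0.113) with all libraries and -0.40 (SE 0.058, adjusted p = 0.0702, edgeR) without HA replicate 3. Pdia4 was called, at an adjusted p of 0.0425 (edgeR), when LP replicate 3 was left out as well. Xbp1 then had an adjusted p of 0.0226 (edgeR). That fit was chosen after seeing the data. Leaving out HA replicate 3, the highest HA library for all 10 genes, lowers the estimates by construction. Over the 20 alternatives, the adjusted p for Pdia4 ran from 0.0425 to 0.9999. Leaving out HP replicate 3 and HA replicate 3, also chosen after seeing the data, keeps only the code Hg43 in both groups. It gave Xbp1 a log2 fold change of -0.44 (adjusted p = 0.0805, edgeR) and called none of the 10.

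The chaperones followed at smaller size. Hspa5 was at 602, 611 and 742 CPM in HA replicates 1, 2 and 3, with a log2 fold change against HP of -0.18 (SE 0.075, adjusted p = 0.847, edgeR) and of -0.28 (SE 0.050, adjusted p = 0.225) without replicate 3. The first 2 libraries lay in or below the LP range and the third in the HP range. Hsp90b1 was at 401, 363 and 414 CPM, with a log2 fold change of -0.12 (SE 0.065) and of -0.15 (SE 0.068) without replicate 3. Dnajb9 was at 63.6, 65.4 and 71.6 CPM, with a log2 fold change of -0.09 (SE 0.059). HA replicate 3 was thus less apart for Hsp90b1 and Dnajb9 than for Xbp1.

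Herpud1 was at 58.7, 62.6 and 82.9 CPM in the 3 HA libraries, Sdf2l1 at 22.9, 24.5 and 31.5 CPM, and Creld2 at 24.0, 23.0 and 32.9 CPM. In each of these 3 genes the third library was at or above the HP mean and the other two were below every HP library. Their log2 fold changes of HA against HP were -0.13, -0.24 and -0.18 with all libraries, and -0.29, -0.39 and -0.36 without HA replicate 3, none of them called. Atf6 was at 46.1, 48.2 and 50.7 CPM and Ern1 at 21.2, 20.3 and 26.2 CPM. Both sensors overlapped HP, with log2 fold changes of 0.03 and 0.04 that became -0.001 and -0.07 without HA replicate 3. The median of the 10 was -0.28 without that library.

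**Figure D3:**
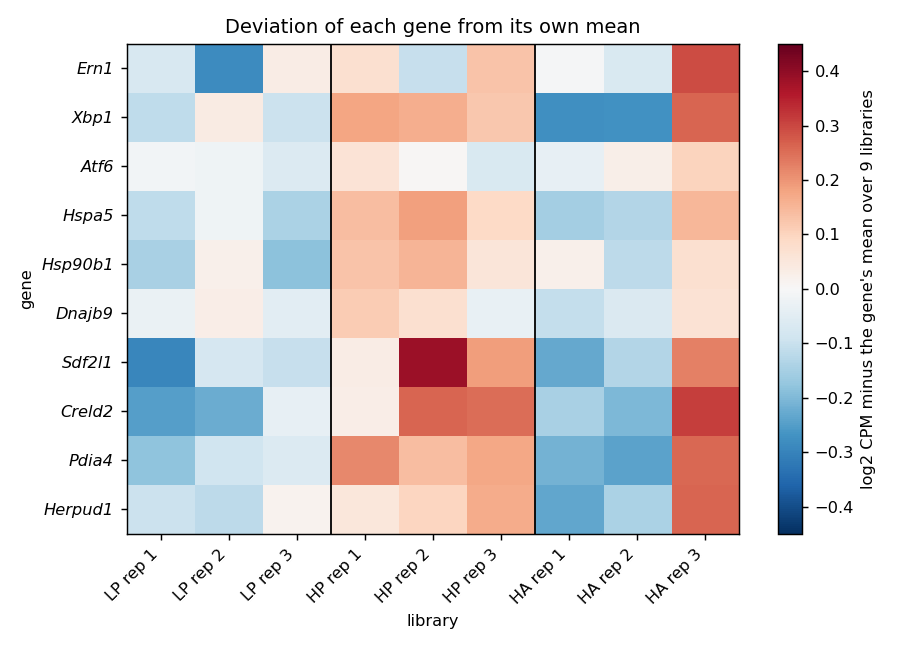
Deviation of log2 CPM from each gene's mean over the 9 libraries (colour) for the 10 genes (rows) and the libraries (columns), with black lines between groups. The number of genes above their own mean is 10, 9 and 8 in HP replicates 1 to 3, and 1, 1 and 10 in HA replicates 1 to 3.

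Averaged over the 10 genes, the log2 deviation was -0.13, -0.07 and -0.07 in LP replicates 1, 2 and 3 and 0.10, 0.14 and 0.11 in HP. It was -0.14, -0.13 and 0.20 in HA. HA replicate 3 was therefore the highest library of all, and HA replicates 1 and 2 the lowest, at about the level of LP replicate 1. HA replicate 3 held the highest value for 6 of the 10 genes and HA replicate 1 the lowest value for 4.

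HA replicate 3 carries the title code Hg13, as does HP replicate 3. Within the code Hg43 (2 libraries a group), all 10 estimates of HA against HP were below 0, and within Hg13 (1 library a group) all 10 were above 0. Of all genes, 50.3% were below 0 in Hg43, 50.7% were above 0 in Hg13, and 25% were both. The largest difference between the codes among the 10 was that of Xbp1, at 0.58 on the log2 scale (SE 0.092, adjusted p = 0.0146, edgeR with an interaction term), where 1.56% of 17094 genes passed. The estimate for Xbp1 was -0.44 in Hg43 and 0.14 in Hg13. For Pdia4 the difference was 0.49 (adjusted p = 0.0772) and for Hspa5 0.36 (adjusted p = 0.115, edgeR). This fit rests on 2 residual degrees of freedom and on 1 library of each group for Hg13, so the code and the single library cannot be told apart. The interaction was added after the split of HA replicate 3 had been seen, so it describes that split and is no independent support for it.

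**Figure D4:**
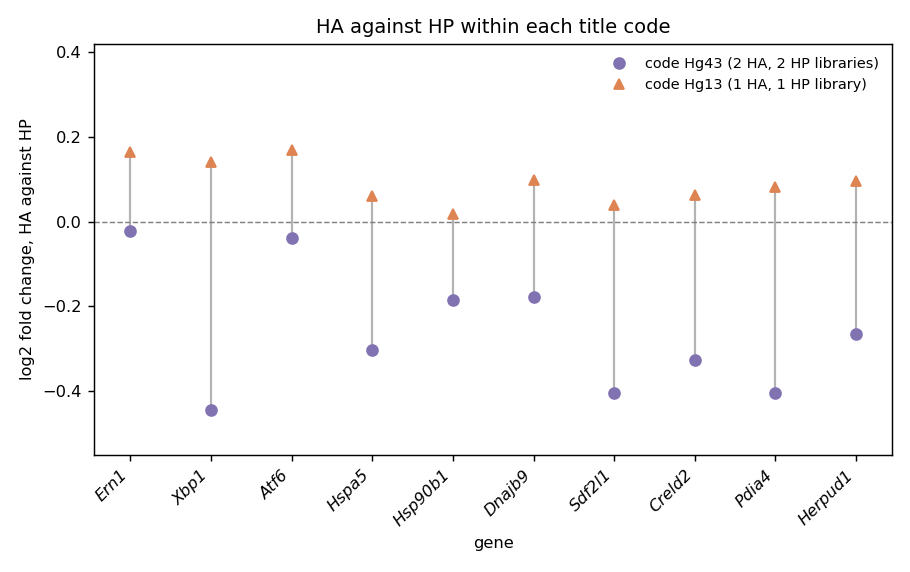
Log2 fold change of HA against HP (y axis) for each of the 10 genes (x axis), within the title code Hg43 (circles, 2 libraries a group) and within Hg13 (triangles, 1 library a group); grey lines join the 2 values of a gene. Every circle lies below 0 and every triangle above it, and the longest line is that of Xbp1 (0.58).

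HA replicate 3 also stood apart in markers of other cells. The summed level of 9 meningeal fibroblast markers reached 761 CPM in HA replicate 3. LP replicate 3 came next at 410 CPM, and the sum lay between 71.3 and 132 CPM in the other 7 libraries. All 9 markers had counts, and Col1a2, Col1a1 and Dcn were the most abundant, at 272, 157 and 124 CPM in HA replicate 3. Of the 10 stress genes, LP replicate 3 was the highest LP library for 4 (33.8% of all genes tested), and its mean log2 deviation of -0.07 was near that of LP replicate 2. HA replicate 3 was also highest in pituitary markers (46.6 CPM for 7 markers, at most 26.8 CPM elsewhere), endothelial markers (308 CPM for 7, at most 251) and blood cell markers (90.2 CPM for 5, at most 70.0). It was lowest in oligodendrocyte markers (11789 CPM for 9, at least 13400 elsewhere). Of the pituitary markers, Cga (24.5 CPM), Gh (16.2 CPM) and Prl were highest in HA replicate 3. Tshb, Lhb, Fshb and Pou1f1 were not. Markers of hypothalamic neurons summed to 1384 to 1735 CPM over the 9 libraries, with all 15 detected. That sum hides opposite movements. Avp, the most abundant, was highest in HA replicate 3 (726 CPM, at most 639 elsewhere), and Pmch was lowest there (76.3 CPM, at least 109 elsewhere). Hcrt was at 59.8, 51.4 and 54.3 CPM in HP replicate 2, HA replicate 2 and HA replicate 3, and at least 91.8 CPM elsewhere. LP replicates 1 and 2 had more of the 9 striatal markers, 499 and 649 CPM against at most 361 CPM elsewhere. The part of any of these in the stress gene values was not tested.

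**Figure D5:**
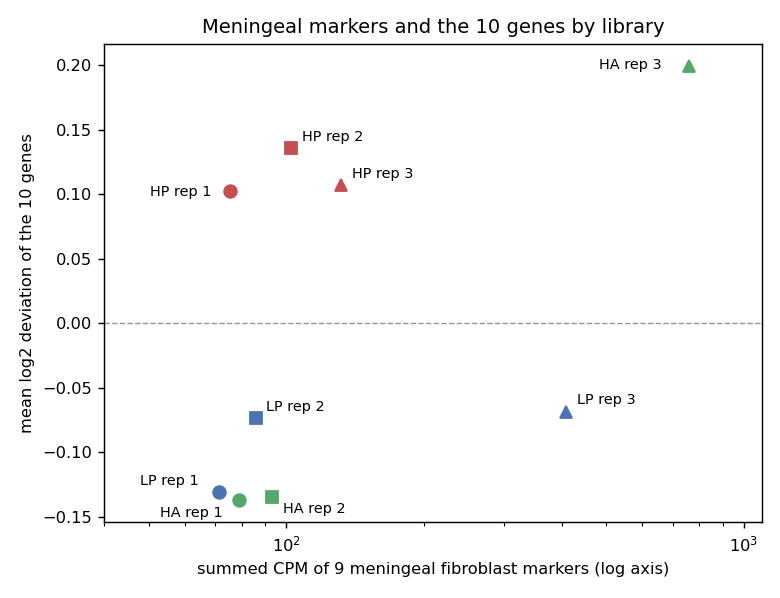
Mean log2 deviation of the 10 genes (y axis) against the summed CPM of 9 meningeal fibroblast markers (x axis, log scale), one point per library, coloured by group and shaped by replicate. HA replicate 3 (761 CPM) is high on both axes, LP replicate 3 (410 CPM) on the x axis only, and the HP libraries lie at 75.3 to 132 CPM with deviations of 0.10 to 0.14.

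A fit chosen after seeing the data left out both LP replicate 3 and HA replicate 3. The median log2 fold change of the 10 genes in HP against LP was then 0.21, as with all libraries. The smallest adjusted p of the 10 was 0.0639 (edgeR), for Pdia4. Over all 19 alternatives for this comparison, all 10 estimates stayed above 0 and none was called.

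HA against LP, which differs in both diet and injection, gave no call among the 10 with edgeR, DESeq2 or limma-voom, and edgeR called 0% of all genes. None of the 10 had an unadjusted p under 0.05, beside 6.53% of all genes. Estimates were above 0 for 8 genes (51.8% of all genes) and below 0 for Xbp1 and Dnajb9, both at -0.02, and the median was 0.06. Without HA replicate 3 the median was -0.04. Of the 10, 8 had HA replicates 1 and 2 at or below the highest LP library, as had 64.3% of all genes, and 4 (Xbp1, Pdia4, Herpud1 and Dnajb9) had both below every LP library, beside 10.3% of all genes.

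Other genes around these branches, taken from lists chosen with earlier results of these data known, gave no call in any of the 3 comparisons (edgeR). Of 14 signalling partners of IRE1 and ATF6, 8 were estimated higher and 6 lower in HP against LP, with a median of 0.007. Mbtps1, the Golgi protease that cuts ATF6, was at 103 to 106 CPM in HP and 108 to 122 CPM in HA (log2 fold change 0.14, SE 0.060, adjusted p = 0.847). It was the 1 gene of the 14 with HA wholly above HP. The share of all genes with HA wholly above HP is not given here. Rtcb, the ligase that joins the cut Xbp1 mRNA, was at 119 to 123 CPM in HP and 113 to 119 CPM in HA, with a log2 fold change of -0.07 (SE 0.050).

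Of 19 further ER chaperones and folding enzymes, 12 were estimated higher and 7 lower in HP against LP, with a median of 0.05, and 6 had HP wholly above LP, as had 5.93% of all genes. Calr, the calcium-binding chaperone calreticulin, was at 468, 456 and 495 CPM in LP and at 534, 531 and 495 CPM in HP (log2 fold change 0.14, SE 0.051, adjusted p = 0.796, edgeR). Uggt1, which tags misfolded glycoproteins for another folding cycle, was at 81.9 to 86.0 CPM in LP, 89.4 to 94.4 CPM in HP and 85.5 to 89.1 CPM in HA. For Uggt1 the HP libraries were above both other groups without overlap, but only just above HA. Its log2 fold change was 0.12 (SE 0.043, adjusted p = 0.796, edgeR) in HP against LP. In HA against HP it was -0.08 (SE 0.043, adjusted p = 0.847, edgeR). Of the 19, 1 (Uggt1) had HA wholly below HP, beside 5.89% of all genes.

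Of 17 genes of ER-associated degradation tested, 12 were estimated higher and 5 lower in HP, with a median of 0.01. Vcp, the ATPase that pulls proteins out of the ER membrane, was at 147, 156 and 143 CPM in LP and at 241, 221 and 166 CPM in HP. It was at 154, 149 and 211 CPM in HA, so HA replicate 3 again lay above the other two. Its log2 fold change in HP against LP was 0.50 (SE 0.150, adjusted p = 0.709, edgeR). Edem1, which recognises misfolded glycoproteins, was at 22.9 to 26.3 CPM in LP and 27.7 to 29.5 CPM in HP, with a log2 fold change of 0.17 (SE 0.082).

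Of 25 genes of ER import and early secretory transport, 16 were estimated higher and 9 lower in HP against LP, with a median of 0.02. Sec61g, a subunit of the translocation channel, was at 22.4 to 24.5 CPM in LP and 25.8 to 27.8 CPM in HP. Its groups did not overlap (log2 fold change 0.17, SE 0.082, adjusted p = 0.827, edgeR). It was the 1 gene of the 25 with HP wholly above LP, beside 5.93% of all genes. For 1 other, HP was wholly below LP, and the share of all genes in that direction is not given here.

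All 7 RNAs that IRE1 is reported to cut had estimates below 0 in HP against LP, with a median of -0.37. Most of that size came with LP replicate 3: without it the median was -0.08, and without any other single library it lay between -0.51 and -0.30. Col6a1, a collagen chain, was at 7.31, 11.2 and 34.3 CPM in LP, and Pmp22, a membrane protein of myelin, at 15.9, 23.6 and 80.6 CPM, each highest in the library with more meningeal markers. In HA against HP, 6 of the 7 were estimated higher and 1 lower, with a median of 0.52. In HA against LP, 5 were higher and 2 lower, with a median of 0.05. When single libraries were left out, these medians ran from 0.027 to 0.65 and from -0.62 to 0.51. Col6a1 was at 8.47, 9.41 and 71.2 CPM in HA. Bloc1s1, the best known of these RNAs, was the one estimated lower in HA against HP. It was at 0.779, 1.18 and 0.914 CPM in LP, at 0.668, 0.881 and 0.680 CPM in HP and at 0.414, 0.428 and 0.479 CPM in HA. Its HA libraries were below all others, with a log2 difference of -0.75 (SE 0.330, adjusted p = 0.847, edgeR) against HP and of -1.12 (SE 0.307, adjusted p = 0.641) against LP, at levels near or below 1 CPM.

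The third branch of the response is run by PERK and ATF4, which slow translation and raise amino acid and redox genes. Of its 14 genes, 5 were estimated higher and 9 lower in HP against LP, with a median of -0.01. Ppp1r15a, whose product restores translation after PERK has acted, was at 13.1 to 14.9 CPM in LP and 13.7 to 15.5 CPM in HP. Atf3, a stress-induced transcription factor, was at 2.62 to 2.99 CPM in HA and 1.67 to 2.54 CPM in HP (log2 fold change 0.42, SE 0.226, adjusted p = 0.847, edgeR). Nupr1, a stress-induced nuclear protein, was at 36.1 CPM in HA replicate 3, at 16.5 CPM in LP replicate 3 and no higher than 3.50 CPM in the others.

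Heat shock chaperones outside the ER, of the cytosol apart from the mitochondrial Hspd1 and Hspe1, served as a comparison. All 15 were estimated higher in HP against LP, with a median of 0.19, and 10 had HP wholly above LP (5.93% of all genes), but none was called. In HA against HP, 14 of the 15 were estimated lower and 1 higher, with a median of -0.08, and 4 had HA wholly below HP (5.89% of all genes). Dnajb1, a co-chaperone of HSP70, was at 98.5, 99.6 and 89.2 CPM in LP, at 136, 117 and 123 CPM in HP and at 123, 116 and 136 CPM in HA. Its HA and HP libraries overlapped and both lay above LP, with a log2 difference of 0.39 (SE 0.075, adjusted p = 0.342, edgeR) in HP against LP. Hspa1b, an inducible HSP70 whose reads may be split with its near-identical copy Hspa1a, was at 12.9, 19.8 and 16.9 CPM in LP, at 26.8, 29.3 and 24.8 CPM in HP and at 16.5, 15.03 and 26.6 CPM in HA. Hspa1b thus had the arrangement of the ER genes, with HA replicate 3 near HP, while Dnajb1 did not.

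The genes whose pattern was most like the mean of the 10 were found by Pearson's r over the 9 libraries, among 10447 protein-coding genes of at least 10 CPM. They were Bbx (0.961), Gosr2 (0.959), Dnajc3 (0.948), Creb3l2 (0.944) and Mtmr6 (0.943). These are the highest of many values over few libraries, which share group, title code and tissue makeup, and are a description. Dnajc3, an ER co-chaperone of BiP, was at 107, 113 and 112 CPM in LP, at 125, 141 and 127 CPM in HP and at 111, 103 and 142 CPM in HA. Creb3l2, a membrane-bound transcription factor related to ATF6, was at 28.7, 28.9 and 30.7 CPM in LP, at 33.7, 34.9 and 32.4 CPM in HP and at 26.6, 28.4 and 41.0 CPM in HA. Both had HP wholly above LP and HA replicate 3 above the other HA libraries, as had Bbx, Gosr2 and Mtmr6. That arrangement follows from how these genes were picked. For Hspa5 alone the closest were Mtmr6 (0.964), Hspa1b (0.948), Tnpo1 (0.947), Ubxn4 (0.939) and Tacc1 (0.934).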

How the data were processed

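The authors deposited whole-number read counts per gene, not normalized, and a matching table of FPKM. The submitters' processing notes list HISAT2 2.0.5, DESeq2 1.16.1 and featureCounts 1.5.0-p3, with the build mm9. However, 98.3% of 54495 shared gene identifiers, and all 10 genes, have the start and end of GENCODE M21 on GRCm38, so coordinates are read as GRCm38. The deposited FPKM were checked against FPKM recomputed from the counts, with ratios of 0.981 to 1.011 over genes of at least 100 counts. Strand-specific counting is not given in the sources used here.

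The test was edgeR 4.0.16 in R 4.3.3 (quasi-likelihood F test, filterByExpr, TMM, group as the only term, all 9 libraries, two-sided), with Benjamini-Hochberg adjustment over 17546 genes and a threshold of 0.05. Its dispersion method was kept, after several had been run on these data, because it gave the values of an earlier analysis; the older method is among the alternatives. SE is the estimate's size over the square root of its F. DESeq2 1.42.0 and limma 3.58.1 (voom) were alternatives, and the fit was tested on simulated data. With 3 against 3 libraries, the smallest two-sided p of an exact permutation test is 0.1, and no such test was run. Replicate counts within each group differed by more than sampling noise (chi-square per degree of freedom 4.97 to 28.2). The largest values were those of HA replicate 3 against HA replicates 1 and 2 (28.2 and 20.8). HA replicates 1 and 2 gave 5.67 with each other. All 9 libraries were kept.

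Same-numbered libraries were checked for pairing by correlating their deviations from the group means across genes. The values were 0.26, 0.14 and 0.49 for replicates 1, 2 and 3 in HA against LP, so every pair passed a limit of 0.1. That limit concerns the data and not the labels. Pups of these 2 groups had dams on different diets, so same-numbered libraries were not littermates. The value of 0.49 joins 2 libraries with large sums of meningeal markers (LP 410 CPM, HA 761 CPM, at most 132 CPM elsewhere). The part of tissue makeup in that value was not tested. In the other 2 comparisons at least 1 pair was under the limit of 0.1.

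The 10 genes and all lists were chosen with earlier results of these data known. Named genes are the 10, up to 3 genes of smallest p per list and comparison (a selection of these is printed), and the 5 genes most like them.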

Additional observations from a re-analysis of the deposited data

Results flagged for a closer look

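For Xbp1, HA replicate 3 differed from the other HA libraries, and with it the estimate of HA against HP differed between the title codes. The log2 fold change was -0.44 in the libraries coded Hg43 and 0.14 in those coded Hg13, a difference of 0.58 (SE 0.092, adjusted p = 0.0146, edgeR interaction term over 17094 genes, with 2 residual degrees of freedom). Hg13 has 1 library in each group and the fit was added after the split had been seen, so the value describes these libraries and the code cannot be told apart from the single library. In Hg43, both HA libraries (101 and 102 CPM) were below both HP libraries (139 and 137 CPM). In Hg13, the HA library (147 CPM) was above the HP library (133 CPM).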

How the results depend on the processing

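None of the 10 genes was called in HP against LP or HA against LP under any alternative, and in HA against HP calls came only when HA replicate 3 was left out. Leaving out 1 library at a time gave 1 to 22 genes called in HP against LP, 1 to 9 in HA against HP and 0 to 16 in HA against LP, the upper ends without LP replicate 3, HA replicate 3 and LP replicate 3. It gave 0 to 1 of the 10 called in HA against HP, and medians of the 10 of 0.19 to 0.26, -0.28 to -0.078 and -0.04 to 0.13 in the 3 comparisons. DESeq2 called 32, 8 and 27 genes in all against 2, 2 and 0. A fit of the 2 groups alone called 5 in HP against LP and 2 in HA against LP.

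With the replicate number as a block, 4 genes were called in HP against LP, and the block changed no call among the 10. Of 6 libraries, 4 correlated best with their own number in HP against LP, 3 in HA against HP and 4 in HA against LP.

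The following were chosen after seeing the data. The older edgeR dispersion method called 2, 2 and 0 genes and none of the 10. Without LP replicate 3 and HA replicate 3, the counts were 48, 11 and 26, with 2 of the 10 called in HA against HP, and the median there was -0.28. Estimates that turned were Ern1 (-0.069) and Atf6 (-0.0017) in HA against HP, and Hspa5 (-0.071), Pdia4 (-0.087) and Herpud1 (-0.078) in HA against LP. Without HP replicate 3 and HA replicate 3, the counts were 15, 10 and 2 and the median in HA against HP was -0.28. Here Ern1 (-0.020) and Atf6 (-0.035) turned in HA against HP, and Hspa5 (-0.049), Sdf2l1 (-0.025), Creld2 (-0.0034), Pdia4 (-0.11) and Herpud1 (-0.12) in HA against LP. The cause was not tested.

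Leaving out single libraries turned the sign of some estimates, none of them called. In HA against HP the ranges were -0.069 to 0.12 for Ern1 and -0.0065 to 0.059 for Atf6. In HA against LP they were -0.22 to 0.073 for Xbp1, -0.068 to 0.014 for Dnajb9, -0.049 to 0.10 for Hspa5, -0.024 to 0.21 for Sdf2l1, -0.0031 to 0.27 for Creld2, -0.11 to 0.15 for Pdia4 and -0.12 to 0.14 for Herpud1. The 10 genes averaged 417 counts or more per library, and depth was not varied.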
